A study of Mus musculus with 6 samples.

Results

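The clathrin adaptor complex AP-1 was followed through its 8 subunit genes, Ap1s1, Ap1s2, Ap1s3, Ap1m1, Ap1m2, Ap1g1, Ap1g2 and Ap1b1, in mouse embryonic stem cells with and without Setd2. The Setd2 enzyme places trimethyl marks on lysine 36 of histone H3 along the bodies of transcribed genes. Members were chosen by gene name: all probe sets whose platform annotation named 1 gene, that gene being one of the 8. This gave 18 of the 45037 probe sets measured, and 8 of the 18193 genes that such probe sets name. The family itself was selected on the knockout minus wild type difference of Ap1s3, which earlier results of these data placed among the largest rises. The difference of Ap1s3 is therefore given as a description, with no test, and the other genes entered through the complex they belong to.

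AP-1 is a heterotetramer that joins clathrin to cargo at the trans-Golgi network and endosomes, and it is unrelated to the transcription factor of the same name. Each complex holds a large gamma subunit (Ap1g1 or Ap1g2), a large beta subunit (Ap1b1), a medium mu subunit (Ap1m1 or Ap1m2) and a small sigma subunit (Ap1s1, Ap1s2 or Ap1s3). The mu subunit binds tyrosine-based sorting signals, gamma and sigma together bind dileucine signals, beta binds clathrin, and the gamma ear recruits accessory proteins. Ap1m2 is known as the mu subunit of epithelial cells, where it takes part in sorting to the basolateral membrane, while Ap1m1 is expressed widely.

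Total RNA was hybridised to Affymetrix mouse arrays, 3 for wild type and 3 for Setd2 knockout cells, both of mixed 129SV/C57BL/6 strain. Both genotypes grew untreated on feeder cells, which were depleted on gelatin before collection. The labels call the 3 arrays of a genotype biological repeats, numbered 1 to 3, and do not say that arrays of like number are paired. They do not give the deleted part of Setd2 or say whether the repeats are separate clones or cultures, so p-values measure the spread between these arrays. Values are log2 MAS5 signals, the log2 of the brightness of a probe set after scaling of each array.

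The 10 stem cell markers checked averaged 12.99 to 13.10 on the wild type and 12.77 to 12.89 on the knockout arrays. Of them 1 was called, against 0.736% of all 12915 genes tested. It was Zfp42 (Rex1) on chromosome 8, which fell by 1.99 on the log2 scale (limma adjusted p = 8.37e-05). The 23 tested feeder fibroblast markers were on average at 7.93 (wild type) and 7.77 (knockout) on array number 1, against 8.53 to 8.92 on numbers 2 and 3, so the arrays differed by number in both genotypes. Their lowest value was 4.93 for Col1a1, but markers too dim to be tested had been left out, so this floor says nothing of feeder RNA. RNA of feeder cells may be part of each value, and its part in the results was not tested. In bulk RNA, fewer cells of a type and less RNA per cell cannot be told apart. The Setd2 probe set read 10.31, 10.30 and 10.31 in wild type and 9.37, 9.50 and 9.60 in knockout cells, all below the wild type arrays. It checks the genotype only if it lies in the deleted part. The genotypes also differed in the Y-linked gene Eif2s3y, at 4.92 ± 0.40 in wild type and 11.30 ± 0.23 in knockout cells (SD, n = 3), and along chromosome 8, where the median gene differed by -0.34. Effects of the genotype and of the cell line it was made in therefore cannot be told apart.

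By mean difference, Ap1s2 shared the sign of Ap1s3 at 3 of its 4 tested probe sets, while Ap1s1 had the opposite sign. The mu paralogs Ap1m1 and Ap1m2 differed in sign from each other. Without the replicate block Ap1m1 was the 1 gene past the test, Ap1s3 being left untested. Of the sigma genes, Ap1s3 was 4.28-fold higher and Ap1s2 was higher at 3 of its 4 tested probe sets, while Ap1s1 was 1.31-fold lower. Of the mu genes, the epithelial Ap1m2 was 1.58-fold higher and the widely expressed Ap1m1 was 1.97-fold lower at its brighter probe set. The gamma gene Ap1g1 was 1.28-fold to 1.42-fold lower, and Ap1s1, Ap1s2, Ap1m2 and Ap1g1 each had a probe set that passed with the block but not without it. Ap1g2 and Ap1b1 missed the test in both fits. Among 14 tested probe sets other than that of Ap1s3, 1 passed the threshold of 0.05 on limma's adjusted p, that of Ap1m1, which fell, against 0.648% of all 27022 probe sets tested (0.274% higher, 0.374% lower). This count was 0 without wild type 2 or 3 or without knockout 2 or 3. With the replicate number as a block, 4 rose and 4 fell, against 3.49% and 4.39% of all probe sets (7.88% in either direction). At 8 of the 14 the genotypes did not overlap, with the knockout arrays above at 5 and below at 3. Over all probe sets this held for 18.1%, with 9.16% above and 8.99% below. Apart from that of Ap1s1, the probe sets that fell with the block or lay below belong to Ap1m1 and Ap1g1. Both genes are on chromosome 8, where 86.3% of 709 tested genes were lower in knockout cells, so shares over all probe sets are no matched background for them. Probe sets of 1 gene are not independent of each other, and the other 3 probe sets of the family were too dim to be tested. Probe sets whose names end in _s_at or _x_at can bind more than 1 transcript.

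**Figure D1:**
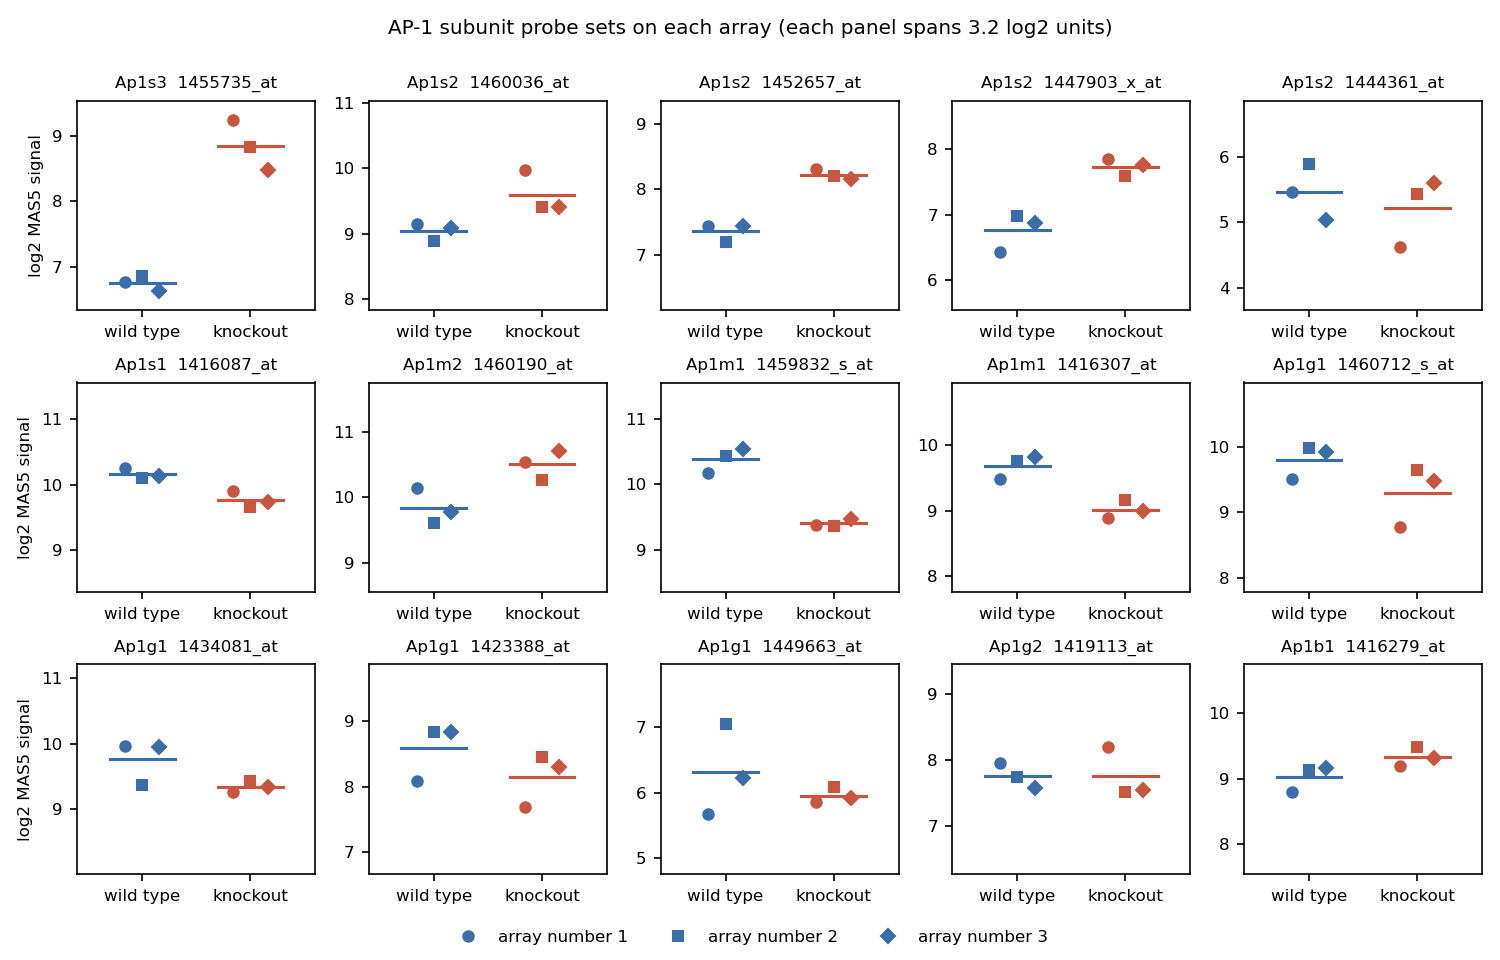
Log2 MAS5 signal of the 15 tested AP-1 probe sets on each array, with 1 panel per probe set, wild type in blue, knockout in red, a symbol per array number and a line at the genotype mean. The 3 knockout arrays of Ap1s3 lie between 8.48 and 9.25, above wild type arrays between 6.63 and 6.86.

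Ap1s3, which encodes the sigma-1C subunit, has 1 probe set (1455735_at). It read 6.77, 6.86 and 6.63 in wild type and 9.25, 8.83 and 8.48 in knockout cells, in the order of the array numbers. The wild type arrays lay within 0.23 log2 units of each other, and the lowest knockout array stood well above the highest of them. The means were 6.75 ± 0.12 and 8.85 ± 0.38 (SD, n = 3), a difference of 2.10 on the log2 scale. Between arrays of the same number the difference was 2.47, 1.97 and 1.85. With each array left out in turn or under the other settings tried, it stayed between 1.90 and 2.28. Of the 722 tested genes on chromosome 1, 721 had a lower difference than Ap1s3, and the remaining 1 is Ap1s3 itself. Since Ap1s3 was selected for its large rise in these data, this rank is a description and no support.

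Ap1s2, the X-linked gene of the sigma-1B subunit, was higher in knockout cells at its 3 brightest probe sets. Probe set 1452657_at read 7.43, 7.19 and 7.44 in wild type and 8.31, 8.20 and 8.15 in knockout cells, with no overlap. Its difference was 0.86 ± 0.16 (SE), a 1.82-fold higher signal, and it missed limma's threshold without the block (adjusted p = 0.0696) and passed with it (0.00740). Probe set 1447903_x_at read 6.43, 6.98 and 6.87 in wild type and 7.85, 7.59 and 7.76 in knockout cells. It differed by 0.97 ± 0.21 (limma adjusted p = 0.106, and 0.0168 with the block).

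The brightest Ap1s2 probe set, 1460036_at, read 9.16, 8.88 and 9.09 in wild type and 9.98, 9.40 and 9.40 in knockout cells. Here too every knockout array was above the wild type arrays, with knockout 1 set apart from knockout 2 and 3. The difference was 0.55 ± 0.19 (limma adjusted p = 0.294, and 0.0188 with the block), and 0.36 without knockout 1. These 3 probe sets followed each other over the 6 arrays, with Pearson r from 0.745 to 0.882. The fourth tested probe set (1444361_at) was dim, at 5.46 in wild type and 5.21 in knockout cells, overlapped between genotypes and correlated below 0 with the others (r from -0.747 to -0.315). Its difference of -0.25 had a 95% interval of -1.17 to 0.68 and turned to 0.049 without knockout array 1. The 2 remaining probe sets, with means between 2.31 and 3.07, were too dim to be tested. The median difference of 419 tested X-linked genes was 0.04, and 1.67% to 7.40% of them had a higher difference than the 3 bright Ap1s2 probe sets.

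Ap1s1, on chromosome 5, encodes the sigma-1A subunit and was the sigma gene that was lower in knockout cells. Its probe set (1416087_at) read 10.26, 10.10 and 10.13 in wild type and 9.90, 9.67 and 9.74 in knockout cells. The groups did not overlap, and the pairs of like number differed by -0.36, -0.44 and -0.39. The difference of -0.39 ± 0.12 (SE) missed limma's threshold without the block (adjusted p = 0.252; 95% interval -0.68 to -0.11) and passed with it (0.0232). Relative to Ap1s1 on the same array, the brightest Ap1s2 probe set was 1.93-fold higher in knockout cells. The change in this ratio was not tested, since its genes were picked with results known.

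**Figure D2:**
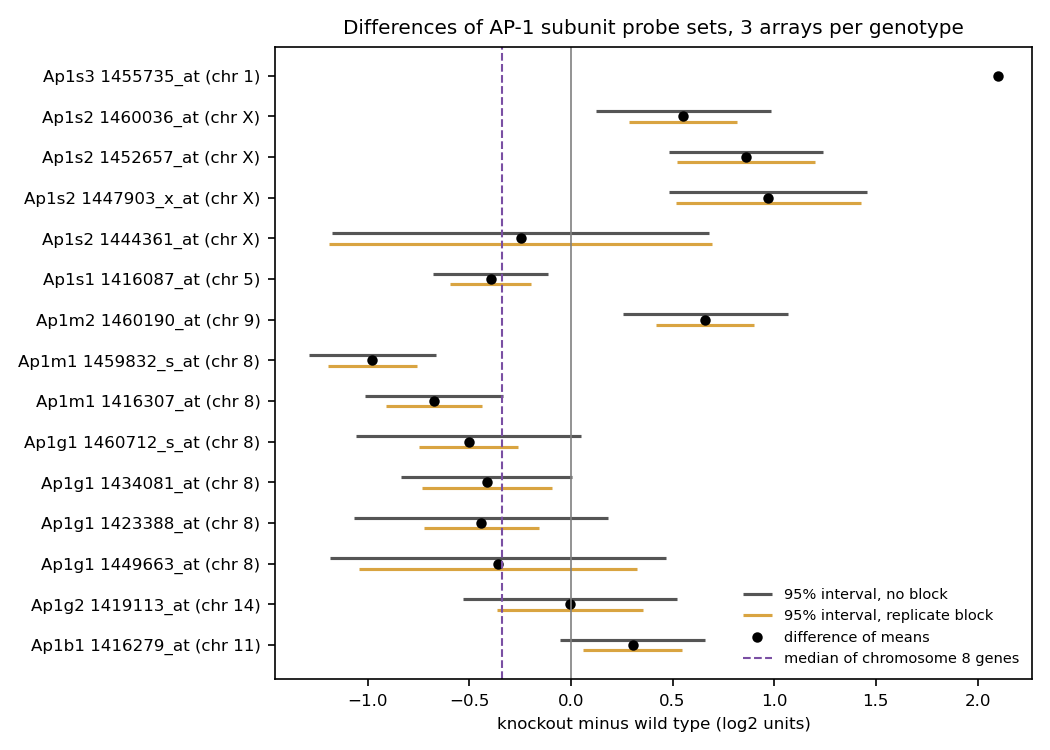
Knockout minus wild type difference in log2 units for the 15 tested AP-1 probe sets, with 95% intervals from limma without (grey) and with (yellow) the replicate block, and the chromosome of each gene. Ap1s3 is drawn without an interval, since it is given as a description, and the dashed line marks the chromosome 8 median of -0.34.

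Ap1m2 (1460190_at) read 10.15, 9.60 and 9.78 in wild type and 10.54, 10.27 and 10.70 in knockout cells. Its highest wild type array lay just below its lowest knockout array, by 0.12 log2 units. The difference was 0.66 ± 0.18 (SE), with pairs of like number at 0.40, 0.67 and 0.92. It missed the threshold without the block (limma adjusted p = 0.179; 95% interval 0.26 to 1.07) and passed with it (0.00475).

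Ap1m1 fell. Its brighter probe set (1459832_s_at) read 10.16, 10.43 and 10.54 in wild type and 9.38, 9.37 and 9.46 in knockout cells. The gap between the genotypes, 0.70 log2 units from the lowest wild type to the highest knockout array, was wider than the spread within either. The difference was -0.98 ± 0.14 (SE; limma adjusted p = 0.0218, and 0.000357 with the block). This call was lost without wild type 2 or 3 (adjusted p = 0.157 and 0.183), without knockout 2 or 3 (0.127 and 0.104) and without limma's intensity trend (0.0916), with differences from -1.01 to -0.90 there. The second probe set (1416307_at) read 9.49, 9.76 and 9.82 in wild type and 8.90, 9.16 and 8.99 in knockout cells. It differed by -0.67 ± 0.15 (limma adjusted p = 0.108, and 0.00384 with the block) and followed the first over the 6 arrays at r = 0.969.

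As a ratio on the same array, the Ap1m2 signal relative to that of Ap1m1 (1459832_s_at) was 3.11-fold higher in knockout cells, a log2 change of 1.64. The log2 ratios were -0.02, -0.83 and -0.76 on the wild type arrays and 1.16, 0.90 and 1.24 on the knockout arrays. Brightness differs between probe sets, so only the change in this ratio has a meaning, not its level. It was not tested, and its genes were picked with results known. Ap1m1 lies on chromosome 8, where the median gene differed by -0.34, and the part of that shift in the ratio was not tested either. The second Ap1m1 probe set, not used here, fell less (-0.67 against -0.98).

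The gamma gene Ap1g1 was lower in knockout cells at its 4 tested probe sets, by 0.36 to 0.50 on the log2 scale. The brightest (1460712_s_at) read 9.51, 9.98 and 9.92 in wild type and 8.78, 9.64 and 9.48 in knockout cells. The genotypes overlapped, with wild type 1 below knockout 2, and the array numbered 1 was the lowest in each genotype. Its difference of -0.50 had a 95% interval of -1.06 to 0.05 without the block (limma adjusted p = 0.477) and of -0.75 to -0.26 with it (adjusted p = 0.0188). Without knockout 1 it was -0.24, and that of 1423388_at went from -0.44 to -0.21. The other 3 tested probe sets missed the threshold in both fits (limma adjusted p from 0.435 to 0.780, and from 0.0648 to 0.549 with the block). A dim probe set (1460658_at) lay between 0 and 1.48 and was too dim to be tested.

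Ap1m1 and Ap1g1 both lie on chromosome 8, where 86.3% of 709 tested genes were lower in knockout cells (median -0.34). The 4 Ap1g1 differences lay in the body of that distribution: 27.6% to 46.0% of chromosome 8 genes had a lower difference. Those of Ap1m1 lay further out, with 3.53% of the genes below the brighter and 13.3% below the second probe set. Relative to the chromosome 8 median the Ap1m1 probe sets differed by -0.64 and -0.33, and the Ap1g1 probe sets by -0.16 to -0.02. The part that the chromosome-wide shift has in either result was not tested.

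**Figure D3:**
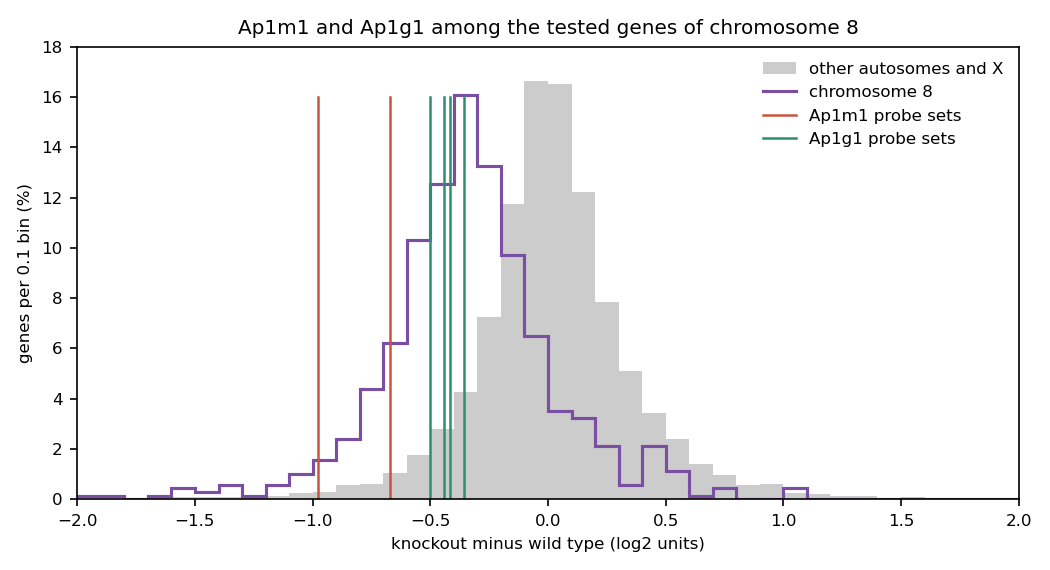
Share of genes per bin of 0.1 log2 units of the knockout minus wild type difference, for 709 tested genes of chromosome 8 (purple line) and for genes of the other autosomes and X (grey), with vertical lines at the probe sets of Ap1m1 (red) and Ap1g1 (green). The Ap1g1 lines fall near the chromosome 8 median of -0.34 and the Ap1m1 lines at -0.98 and -0.67.

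The other large subunits did not pass the test. Ap1g2, which encodes gamma-2, read 7.95, 7.75 and 7.58 in wild type and 8.20, 7.52 and 7.54 in knockout cells (1419113_at). The genotypes overlapped, and the difference of -0.0045 had a 95% interval of -0.53 to 0.52 (limma adjusted p = 0.998). Ap1b1, the beta subunit shared by every AP-1 complex, read 8.80, 9.12 and 9.16 in wild type and 9.20, 9.48 and 9.31 in knockout cells (1416279_at). Its arrays lay higher in the knockout without overlap, though by only 0.04 at the closest point. The difference of 0.30 (95% interval -0.05 to 0.66) missed the threshold without the block (limma adjusted p = 0.513) and with it (0.128).

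The promoters of Ap1s3, Ap1s2 and Ap1m2, whose means were higher in knockout cells, and of Ap1s1, the lower sigma gene outside chromosome 8, are shown for comparison. They are the 250 bases before the start of each gene from RefSeq, build GRCm38.p6, which held 7 of the 8 members. Capitals mark CACCTG or its reverse complement CAGGTG, an E-box core that Zeb and Snail repressors of epithelial genes are known to bind. The motif was picked after the sequences had been read.
Ap1s3 (chr1:79671973-79672222, minus strand): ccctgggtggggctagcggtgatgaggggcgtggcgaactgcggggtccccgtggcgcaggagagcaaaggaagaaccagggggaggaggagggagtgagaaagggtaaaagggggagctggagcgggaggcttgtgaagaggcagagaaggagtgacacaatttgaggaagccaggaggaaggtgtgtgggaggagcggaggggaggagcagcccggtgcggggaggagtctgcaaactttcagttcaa
Ap1s2 (chrX:163908767-163909016, plus strand): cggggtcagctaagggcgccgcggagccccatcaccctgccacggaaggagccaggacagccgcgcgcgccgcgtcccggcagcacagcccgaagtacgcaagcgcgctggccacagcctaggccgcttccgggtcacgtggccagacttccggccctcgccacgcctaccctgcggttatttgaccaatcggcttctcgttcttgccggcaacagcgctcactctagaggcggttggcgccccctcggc
Ap1m2 (chr9:21312334-21312583, minus strand): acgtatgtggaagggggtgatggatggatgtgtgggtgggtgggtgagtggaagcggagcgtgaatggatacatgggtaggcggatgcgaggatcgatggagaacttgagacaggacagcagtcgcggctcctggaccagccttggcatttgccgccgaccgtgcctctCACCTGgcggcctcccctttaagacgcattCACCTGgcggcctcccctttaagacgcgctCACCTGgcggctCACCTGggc
Ap1s1 (chr5:137046109-137046358, minus strand): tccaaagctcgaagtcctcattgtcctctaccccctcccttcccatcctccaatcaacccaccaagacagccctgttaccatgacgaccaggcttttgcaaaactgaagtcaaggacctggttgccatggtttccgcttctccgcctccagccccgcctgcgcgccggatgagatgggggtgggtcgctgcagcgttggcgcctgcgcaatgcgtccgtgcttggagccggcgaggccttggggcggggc

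The Ap1m2 window held the motif 4 times, starting 81, 51, 21 and 9 bases before the gene's start. The first 2 sites open adjoining stretches of 30 bases that are identical at 28 positions, so these sites are copies within a tandem repeat. Of 32851 promoter windows of this length, 17.2% held the motif at least once on either strand and 14 windows (0.0426%) at least 4 times. The windows of Ap1s3, Ap1s2, Ap1s1 and Ap1b1 held it 0 times, and those of Ap1g1 and Ap1g2 once each. The G and C share of the 7 windows ran from 54.8% for Ap1b1 to 70.0% for Ap1s2, against a median of 52.4% over all windows. A match in letters is a description and says nothing of binding in these cells.

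The neighbours of Ap1s3 on chromosome 1 were examined in gene order. Of the 5 measured protein-coding genes on either side, 6 were bright enough to be tested, and none passed limma's threshold. Since only 0.736% of all genes passed, the lack of a call among 6 says little of them. Their differences ran from -0.46 for Acsl3, an acyl-CoA synthetase gene, to 0.11 for Mrpl44, a mitochondrial ribosomal protein gene (adjusted p from 0.573 to 0.945). With the block Acsl3 fell (limma adjusted p = 0.0236), as did 5.75% of all genes. The nearest measured genes on either side were Scg2, a secretogranin gene, too dim to be tested at 4.04 and 4.97, and Wdfy1, which differed by -0.07 (95% interval -0.58 to 0.43). The other dim neighbours Mogat1, Kcne4 and Dock10 had higher means in knockout cells, by 1.63, 0.63 and 1.10, at levels between 3.37 and 5.46. For Mogat1 and Dock10 the knockout arrays lay above the wild type arrays without overlap, which was not tested.

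**Figure D4:**
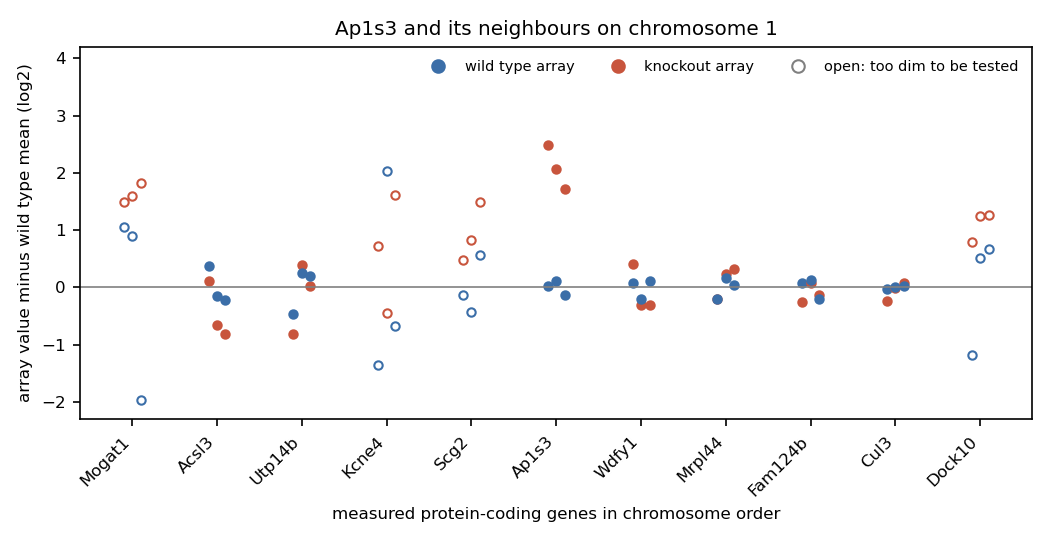
Array values relative to the wild type mean of each gene, in log2 units, for Ap1s3 and the 5 measured protein-coding genes on either side of it in chromosome order, with wild type arrays in blue, knockout arrays in red and open symbols for genes too dim to be tested. Among filled symbols the knockout arrays of Ap1s3 stand apart from 0, while those of Wdfy1, Mrpl44, Fam124b and Cul3 lie around it.

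The genes that handle AP-1 and its cargo were taken from 8 lists: clathrin chains, the AP-2, AP-3, AP-4 and AP-5 adaptors, the GGA and monomeric adaptors, accessory proteins, Arf switch genes and cargo. Of 71 tested genes, each at its brightest probe set, 0 passed limma's threshold, 12 (16.9%) had an unadjusted p under 0.05, and the median difference was 0.02. Over all 12915 genes 0.736% passed, 13.4% had an unadjusted p under 0.05 and the median was -0.00056. With the block 5 of the 71 rose and 3 fell, 11.3% in all, against 9.87% of all genes (4.13% rose and 5.75% fell), so the share was near the background. Without knockout 1, the unblocked fit called 3 of the 71, and 431 of all 27022 probe sets (175 with all arrays). Of the 3, M6pr (limma adjusted p = 0.00886) was higher, and Arfrp1 (0.0384) and Cltb (0.0255) were lower. For the 8 AP-1 genes at their brightest probe set the median difference was 0.15, with 4 below 0. That median includes Ap1s3, whose rise selected the family, so it cannot be set against the other medians.

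The clathrin chain genes include Cltb, a light chain gene picked after its values were seen. It read 10.05, 9.82 and 9.91 in wild type and 9.28, 9.10 and 9.08 in knockout cells. Every knockout array was lower, by a mean of 0.77 log2 units. It missed limma's threshold (adjusted p = 0.0518) and passed with the block (0.00127). Over the other alternatives its adjusted p ran from 0.00294 with arrays 2 and 3 alone to 0.288 without wild type 3. It passed without the filter on dim probe sets, under quantile normalization, after centring on array medians, with array weights and without knockout 1. It missed without the intensity trend, without chromosomes 8 and Y and without each of the other 5 arrays. The other light chain gene Clta and the heavy chain gene Cltc differed by 0.07 (95% interval -0.08 to 0.22) and 0.15 (-0.02 to 0.32). The brightest genes of the plasma membrane adaptor AP-2, Ap2s1 and Ap2m1, differed by -0.18 (-0.40 to 0.03) and 0.28 (-0.07 to 0.62). In AP-3, an adaptor of lysosome-related organelles, Ap3s1 and Ap3b1 differed by -0.04 each. Ap4s1 and Ap4e1 of AP-4 differed by 0.24 and 0.02, and the monomeric adaptors Gga2 and Clint1 by 0.11 and -0.06. With the block, 0 of the 29 tested genes of AP-2 to AP-5 and of the monomeric adaptors passed (limma), against 9.87% of all genes. Without it 2 of the 29 had an unadjusted p under 0.05, against 13.4% of all genes.

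Membrane recruitment of AP-1 depends on Arf GTPases and their exchange factors. Arf1, which recruits AP-1 in its GTP-bound form, differed by 0.15 (95% interval 0.000045 to 0.29) and Arl1, a Golgi GTPase, by -0.12 (-0.43 to 0.19), both short of limma's threshold (adjusted p = 0.428 and 0.807). With the block the exchange factor gene Gbf1 rose by 0.52 (limma adjusted p = 0.0432) and the Golgi GTPase gene Arfrp1 fell by 0.53 on the log2 scale (adjusted p = 0.00645). They were the 1 rise and the 1 fall among 12 tested Arf switch genes, against 4.13% and 5.75% of all genes. Gbf1 and Arfrp1, like Heatr5b and the cargo genes named with the block below, were picked after their values were seen. Among 14 tested accessory genes 1 fell with the block, against 5.75% of all genes. It was Heatr5b, whose protein works with AP-1 in membrane traffic (-0.57, limma adjusted p = 0.0380). The brightest accessory genes, Heatr5a and Necap2, differed by -0.16 and 0.04.

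The 13 tested cargo genes had a median difference of 0.35, and 4 of them lay below 0. None passed limma's threshold without the block, where 4 had an unadjusted p under 0.05 (13.4% of all genes), and 4 rose with it (4.13% of all genes). M6pr, the cation-dependent mannose 6-phosphate receptor that AP-1 carries from the Golgi, read 11.54, 11.62 and 11.60 in wild type and 11.76, 12.31 and 12.32 in knockout cells (limma adjusted p = 0.197, and 0.00710 with the block). At the mean over its tested probe sets it rose by 0.74 without the block (adjusted p = 0.0202). The planar polarity gene Vangl2 rose by 0.49 with the block, the sorting receptor gene Sorl1 by 0.64 and the adhesion receptor gene Cxadr by 0.91 (limma adjusted p from 0.00928 to 0.0225). Without the block their limma adjusted p ran from 0.180 to 0.416. The brightest cargo genes, Tfrc for the transferrin receptor and Lamp1, a lysosomal membrane protein gene, differed by -0.15 (-0.31 to 0.01) and -0.05 (-0.25 to 0.16).

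**Figure D5:**
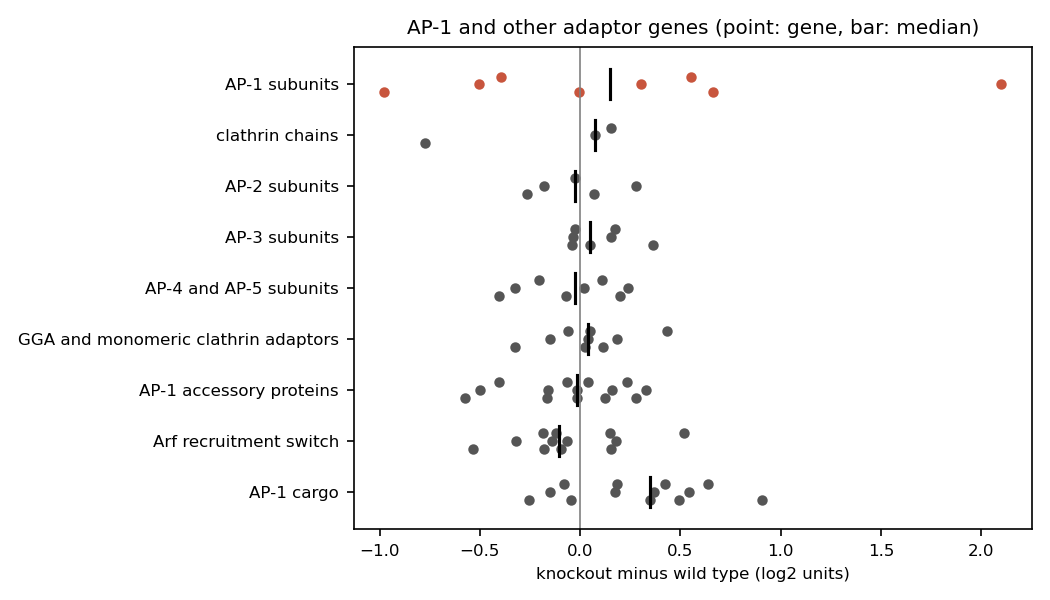
Knockout minus wild type difference in log2 units of each tested gene, at its brightest probe set, for the AP-1 subunits (red) and 8 lists of other adaptor, clathrin, Arf and cargo genes (grey), with a bar at the median of each list. The AP-1 genes spread from -0.98 to 2.10, the latter being Ap1s3, whose rise selected the family and which enters the AP-1 median. The cargo list has a median of 0.35.

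The epithelial genes, to which Ap1m2 is linked by its expression in epithelia, included 3 of 20 tested members that rose in limma (0.256% of all genes) and 0 that fell, and 8 that rose with the block (4.13% of all genes). The 3 were the splicing regulator gene Esrp1, the transcription factor gene Ovol2 and the small GTPase gene Rab25, with differences of 1.26, 1.44 and 1.52, and they were known from earlier results when the list was written. Their limma adjusted p of 0.00602, 0.0183 and 0.0308 rose to 0.0592, 0.137 and 0.198 without wild type 3 and to 0.0544, 0.106 and 0.147 without knockout 3. Ovol2 and Rab25 also missed the threshold without wild type 2 (0.112 and 0.170) or knockout 2 (0.0783 and 0.0788), and Rab25 without the intensity trend (0.0711). Of the 20, 3 had differences below 0 (Esrp2 at -0.73, without overlap, Marveld2 at -0.43 and Prss8 at -0.02), and Cdh1, the brightest, differed by 0.09. Esrp2, Marveld2 and Prss8 missed limma's threshold in both fits, and these 4 genes were picked after their values were seen.

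Likeness of pattern was measured as Pearson r over the 6 arrays among 12300 genes. It includes the step between genotypes and is given as a description. Most like Ap1s3 were Arrdc4 (r = 0.997), an arrestin-domain gene, Ttc19 (0.995), Clasp2 (0.992), a microtubule plus-end gene, Cyp2j13 (0.991) and Wwc1 (0.990), with differences of 0.35 to 0.69 in these genes against 2.10 in Ap1s3. Most like Ap1m2 were Urah (0.994), Numbl (0.992) and Grk6 (0.987), with differences of 0.42 to 0.62.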

How the data were processed

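The authors deposited 1 table of log2 values, 45037 probe sets on 6 arrays, made with MAS5 per the submitters' processing notes; its version is not given in the sources used here. Trimmed means of the signals (2% off each end) were 497.0 to 497.3 on all arrays, so no further normalization was applied. Detection calls were not used. Genes were named from the platform annotation and brought up to date by gene identifier (34741 of 34945 probe sets with 1 gene; 932 named several, 9160 none). Probe sets whose mean log2 value lay below the 40th percentile (5.27) were not tested, which left 27022. Tests used limma 3.58.1 under R 4.3.3 (lmFit, eBayes with an intensity trend, two-sided, Benjamini-Hochberg over all 27022, threshold 0.05), after a test on simulated data. Intervals are 95%. The number of arrays limits the precision. Deviations from the genotype means correlated between arrays of like number at r = 0.50, 0.23 and 0.24. A fit blocked on the replicate number is therefore given wherever it changes the call of a named gene. The genes named for likeness of pattern are the exception, being given as a description. Wild type 2 correlated as well with knockout 3 (0.23).

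The members and lists were chosen with earlier results of these data known. Named genes were the members at every probe set, up to 4 genes past the threshold per list or else its 2 brightest, 5 measured neighbours on either side of Ap1s3, and the genes most like Ap1s3 (5) and Ap1m2 (3); others are marked as picked after their values were seen. Alternatives covered the filter, trend, normalization, array weights, the block, single arrays, array numbers, and chromosomes 8 and Y. Promoter windows came from RefSeq (GRCm38.p6).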

Additional observations from a re-analysis of the deposited data

How the results depend on the processing

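With each array left out in turn, 31 to 431 probe sets were called in all (175 with all arrays), 0 to 1 of the 14 AP-1 probe sets besides Ap1s3 (1 with all arrays; 0 without wild type 2 or 3 or knockout 2 or 3) and 0 to 3 of the 71 trafficking genes (0 with all arrays; 3 without knockout 1). With the replicate block the counts were 2129, 8 and 8, with array quality weights 1354, 6 and 6, and with the arrays numbered 2 and 3 alone 2033, 5 and 8. Without the intensity trend 57 probe sets and 0 AP-1 probe sets were called. Leaving out chromosomes 8 and Y removes Ap1m1 and Ap1g1 and left 0 of 8 AP-1 probe sets called. Trafficking calls came to 1 without the filter, under quantile normalization, after median centring (each Cltb) and at gene means (M6pr). Of 204 recomputed single differences of AP-1 probe sets, 7 changed sign, none of them called. These were 1444361_at of Ap1s2 (0.027 with array weights, 0.049 with numbers 2 and 3 alone, -0.46 to 0.049 with single arrays left out), 1449663_at of Ap1g1 (-0.68 to 0.0044 with single arrays left out) and Ap1g2 (-0.23 to 0.11 likewise). The cause was not tested. Dim signals limit what can be said of Ap1s2 (1444361_at) and 3 further probe sets.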
